A study of Homo sapiens with 6 samples.

Results

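The ribosome biogenesis and nucleolar genes described here are 58 genes whose products make ribosomal RNA, process it or assemble it with ribosomal proteins. A gene was taken in when its symbol was on this list and it had at least 10 counts in 3 or more libraries. All 58 symbols met the rule, out of 62754 genes in the deposited count table, and each was found in 1 row. All 58 were also among the 19874 genes kept for testing, and the smallest count of any of them in any library was 148. The cells were HK-2, an immortalised human line derived from kidney proximal tubule epithelium, and every library came from cells treated with Cisplatin, a platinum drug that crosslinks DNA. Of the 6 libraries, 3 came from cells given negative control siRNA (CP+siNC) and 3 from cells given siRNA against NAT10 (CP+siNAT10). The comparison asked which messenger RNAs differed when NAT10 was silenced under Cisplatin, and cells without Cisplatin were not analysed here. Total counts were 19321665, 21602988 and 19464027 in CP+siNC and 20793709, 21531774 and 25192736 in CP+siNAT10. The labels do not give the siRNA sequence, and lower NAT10 and other effects of the siRNA cannot be told apart. The labels do not say that the libraries came from separate cultures, so p-values measure only the spread between these samples, which may be technical.

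Ribosomes are built in the nucleolus, where RNA polymerase I transcribes a long precursor RNA from the ribosomal DNA repeats. The precursor is folded, modified and cut by small nucleolar ribonucleoproteins (snoRNPs) and by the small subunit processome, a large particle that forms on the nascent RNA, and the 2 subunits then mature on separate paths and leave for the cytoplasm. NAT10 itself belongs to this pathway, since it acetylates cytidines in 18S ribosomal RNA and is needed for the processing of its precursor, with THUMPD1 as the adaptor for its transfer RNA targets. In tubular epithelium, as in other cells, ribosome synthesis is tied to growth.

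NAT10 was measured as a check of the labels. It was at 75.8, 71.4 and 73.2 CPM in CP+siNC and 41.3, 40.5 and 42.4 CPM in CP+siNAT10. Every CP+siNAT10 library was below every CP+siNC library, with a log2 fold change of -0.82 ± 0.043 (edgeR quasi-likelihood test, Benjamini-Hochberg adjusted p = 2.79e-15). THUMPD1 was at 102, 101 and 98.4 CPM in CP+siNC and 70.6, 74.6 and 76.7 CPM in CP+siNAT10. Its groups did not overlap either, and its log2 fold change was -0.44 ± 0.039 (edgeR quasi-likelihood test, Benjamini-Hochberg adjusted p = 2.27e-10). CPM are counts per 1000000 with library sizes scaled by the trimmed mean of M-values (TMM). Fold changes are given throughout as CP+siNAT10 over CP+siNC on the log2 scale, from the edgeR model fitted to the counts with the same scaling. The error after ± of a fold change is a standard error worked out from the fold change and its test statistic.

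The cell markers matched the label in part. The epithelial keratin genes KRT8, KRT18 and KRT19 were abundant, and KRT8 averaged 1452 CPM over the libraries, while CDH1 had at most 2 counts in any library. KRT18 was called lower in CP+siNAT10 (log2 fold change -0.36) and the epithelial gene EPCAM higher (0.31), while KRT8 and KRT19 were not called. Of the 12 proximal tubule markers, 6 could be tested, and CDH6 was the most abundant at 54.1 CPM. The other proximal tubule markers, LRP2, CUBN, ANPEP, SLC34A1, SLC22A6 and SLC22A8, had at most 8 counts in any library, while the glucose transporter SLC5A2 averaged 9.30 CPM in CP+siNC and 11.5 CPM in CP+siNAT10. Of the 6 tested markers 3 were called higher and 2 lower, with a median log2 fold change of 0.017, so they did not move together. Their list summed to 132 ± 4.15 CPM (SD, n = 3) in CP+siNC and 159 ± 6.11 CPM (SD, n = 3) in CP+siNAT10, a rise that came mainly from CDH6 (45.4 and 62.8 CPM) and PAX8 (31.4 and 47.2 CPM). None of the 4 endothelial markers could be tested. Of the podocyte list only PODXL (7.47 CPM), and of the loop and collecting duct list only CALB1 (1.43 CPM), could be tested. PODXL was called higher, at 6.24 CPM in CP+siNC and 8.70 CPM in CP+siNAT10 (log2 fold change 0.49), and CALB1 was not called. The fibroblast list was led by COL1A1 at 12.1 CPM, and its sum was 11.3 ± 0.648 CPM (SD, n = 3) in CP+siNC and 14.5 ± 1.64 CPM (SD, n = 3) in CP+siNAT10. The immune list summed to 209, 198 and 216 CPM in CP+siNC and to 288, 265 and 268 CPM in CP+siNAT10, nearly all of it from CD68, a lysosomal protein. PTPRC, the common leukocyte marker, was at 0.425, 0.467 and 0.363 CPM in CP+siNC and 0.475, 1.33 and 0.671 CPM in CP+siNAT10, CD3E had 3 to 10 counts and LYZ 1 to 3. The part of these marker differences in the results below was not tested. Fewer cells of a kind and less RNA per cell cannot be told apart in bulk RNA.

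As a group, the ribosome biogenesis genes were shifted slightly upwards. Of the 58 members, 29 were called higher in CP+siNAT10 and 10 lower at an adjusted p under 0.05, and 19 were not called. Over all 19874 tested genes 44.1% were called, 21.8% higher and 22.3% lower, whereas among the members the shares were 50% and 17.2%. Since the members are well expressed, with a median of 85.1 CPM against 10.4 CPM for all tested genes, they were also set beside the 10361 tested genes at or above the lowest member's mean CPM, of which 30.4% were called higher and 30.8% lower. The counts of calls given below for single roles and lists are to be read beside these 2 shares, and no role or list was tested against them. Most of the changes were small. With a log2 fold change of at least 0.32 in size required as well, 7 members were higher and 3 lower, which is 12.1% and 5.17% of them, beside 11.1% and 12.3% of all tested genes, so the count of larger rises was near the background. The 3 libraries of each group did not overlap for 31 members that were higher and 11 that were lower, while such genes were 25.7% in either single direction, and 51.4% in both together, of all tested genes.

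The median log2 fold change of the members was 0.11, with quartiles of -0.034 and 0.21, beside 0.0070 over all tested genes. It was 0.0044 over the genes at or above the lowest member's mean, 9.25 CPM, a set not matched in level to the members. Values ran from -0.63 for POLR1B to 0.90 for NOLC1, 40 members were positive and 18 negative. Small differences were common, as 18 members were within 0.1 of 0 and 9 were at least 0.4 from it. The summed level of all 58 was 13936, 13084 and 13352 CPM in CP+siNC and 14215, 14229.5 and 14367.5 CPM in CP+siNAT10, and the CP+siNAT10 sum was 106% of the CP+siNC sum. NOLC1 made up much of that rise, since without it the mean sums were 12919 and 13270.2 CPM, or 103%. That remaining difference was not tested. The sum of all 58, NOLC1 included, had an SD of 436 CPM in CP+siNC and 84.2 CPM in CP+siNAT10. NCL, NPM1, NOLC1 and NOP56 together made up 48.5% of the members' sum. In the plot of cumulative fold changes the members' curve lies to the right of both comparison curves through its middle part and meets them in the tails. Across the 58 genes the fold change was nearly unrelated to the level per length of the gene (Spearman's rho 0.050 with RPKM, the CPM per kilobase of gene) and weakly related to gene length (rho 0.15), as a description over genes that share the same libraries. Without TMM scaling, with library size only, the members' median was 0.15, 34 members were called higher and 6 lower. All tested genes moved the same way, with 5050 called higher and 3786 lower, beside 4331 and 4440 with TMM, and a median of 0.044.

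**Figure D1:**
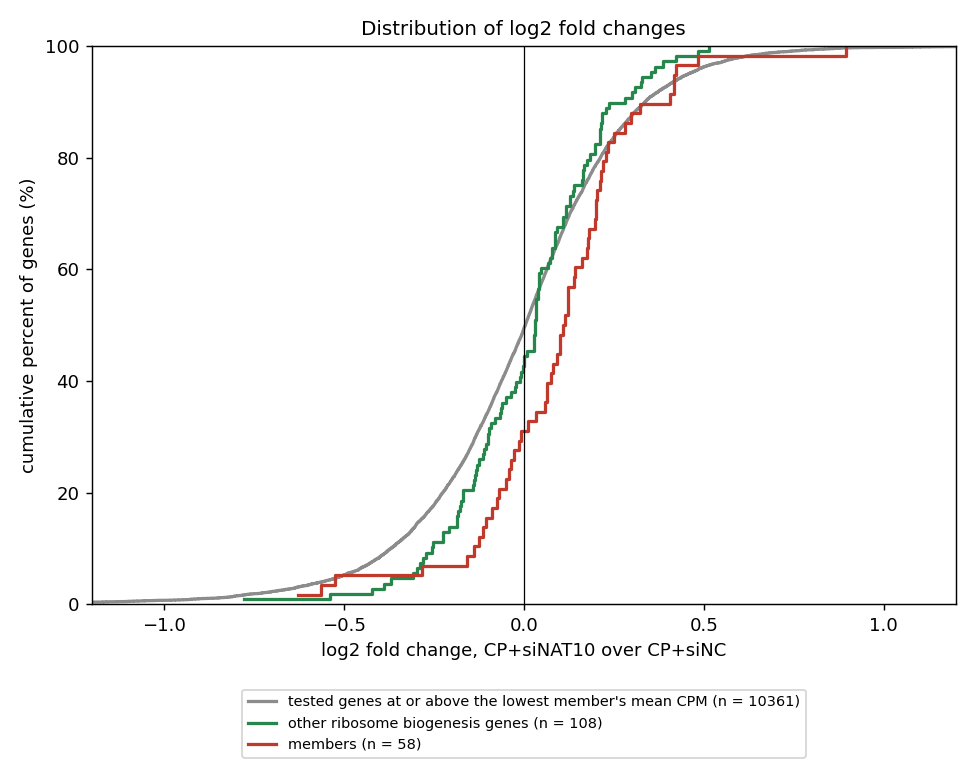
Cumulative percent of genes (vertical axis) against log2 fold change of CP+siNAT10 over CP+siNC (horizontal axis) for the 58 members, 108 other ribosome biogenesis genes and 10361 tested genes at or above the lowest member's mean CPM. The members' median of 0.11 lies above the medians of the other biogenesis genes (0.032) and of those 10361 tested genes (0.0044).

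**Figure D2:**
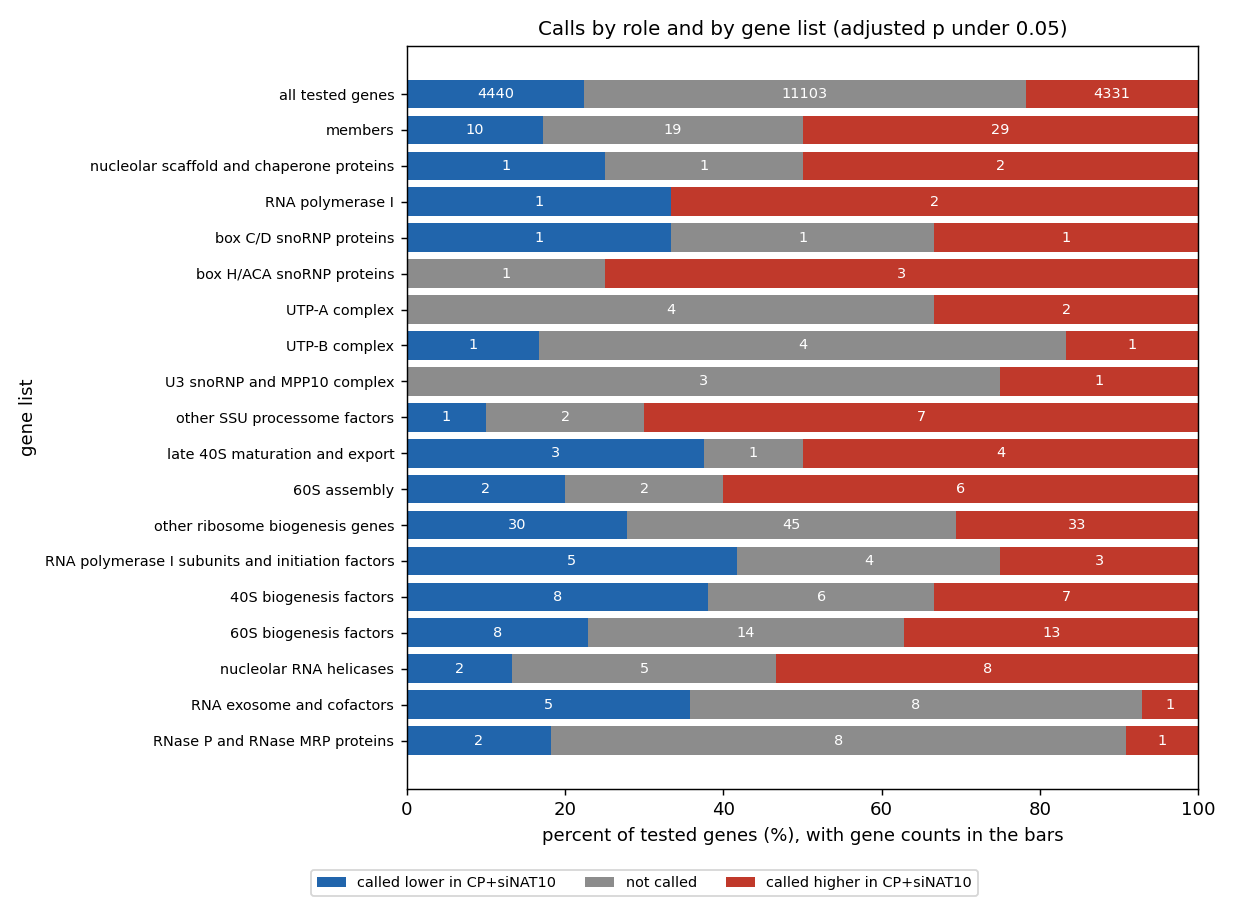
Percent of tested genes called higher, lower or not called in CP+siNAT10 against CP+siNC (horizontal axis) for each gene list (vertical axis), with gene counts in the bars. Among the members 29 were called higher and 10 lower, while the other ribosome biogenesis genes were split nearly evenly, 33 higher and 30 lower.

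Promoter sequence was examined because many genes of this pathway are known targets of MYC, which binds the E-box CACGTG, a palindrome that reads the same on both strands. Promoters of 300 bases, 250 before and 50 after the start site, from RefSeq on GRCh38.p14 were matched by symbol for 49 members and not for NOLC1, TCOF1, NOP58, MPHOSPH10, NOL10, RRP12, BOP1, RRS1 and RRP1B. The letters CACGTG were present in 22 of the 49, or 44.9%, compared with 24.2% of the other ribosome biogenesis genes, 12.4% of all tested genes, 13.3% of tested genes at or above the lowest member's mean CPM and 8.77% of all genes with a promoter. Of the 26 matches, 17 began at or after the start site, which is 65.4%, against 9.68% of the 1777 matches in promoters of tested genes. A match was found in 11 of 22 members called higher, 4 of 10 called lower and 7 of 17 not called, so genes with a match were found in both directions. A match is a description, not a site or a cause. Windows of the 6 motif bases (in capitals) with up to 12 bases on each side are shown for 8 members. These are the 4 members with the largest rises that had a match and the 4 members called lower that had one. The 4 falls were small, from -0.16 for BYSL to -0.11 for UTP18, and BYSL, PNO1 and UTP18 lost their calls in some settings. The larger falls, POLR1B (-0.63), RIOK2 (-0.56), NIP7 (-0.52) and WDR12 (-0.28), had a promoter but no match. The windows are written 5′ to 3′ on the strand of the gene. The rising members are GAR1 (chr4:109815781-109815810, + strand), NOL6 (chr9:33473894-33473923, - strand), PES1 (chr22:30591880-30591909, - strand) and UTP20 (chr12:101280083-101280112, + strand). The falling members are BYSL (chr6:41921515-41921544, + strand), PNO1 (chr2:68157885-68157914, + strand), UTP14A (chrX:129905914-129905940, + strand) and UTP18 (chr17:51260538-51260567, + strand), the last with another match further upstream.
GAR1: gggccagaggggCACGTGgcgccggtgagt
NOL6: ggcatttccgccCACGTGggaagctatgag
PES1: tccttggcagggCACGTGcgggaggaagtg
UTP20: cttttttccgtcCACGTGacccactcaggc
BYSL: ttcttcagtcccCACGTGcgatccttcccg
PNO1: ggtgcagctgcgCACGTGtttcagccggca
UTP14A: accttgggcCACGTGgaaaccaggggc
UTP18: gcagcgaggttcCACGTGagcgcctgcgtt

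Among the nucleolar scaffold and chaperone proteins, 2 of 4 rose and 1 fell. NOLC1, also known as Nopp140, is a phosphoprotein that binds both classes of snoRNP and shuttles between the nucleolus and Cajal bodies, and it lies on GRCh38 at chr10:102152176-102163866. Its level was 552, 526 and 535 CPM in CP+siNC and 1015, 976 and 1010.0 CPM in CP+siNAT10. All CP+siNAT10 libraries were well above all CP+siNC libraries, and the level was 186% of the control. This was the largest rise of any member, with a log2 fold change of 0.90 ± 0.033 (edgeR quasi-likelihood test, Benjamini-Hochberg adjusted p = 2.65e-18). TCOF1 encodes treacle, which links RNA polymerase I to the ribosomal DNA and is mutated in Treacher Collins syndrome (chr5:150357629-150400308). It was at 348, 349 and 363 CPM in CP+siNC and 471, 478 and 466 CPM in CP+siNAT10. The groups were clearly apart, and the log2 fold change was 0.42 ± 0.032 (edgeR quasi-likelihood test, Benjamini-Hochberg adjusted p = 1.72e-11).

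The other proteins of this class, nucleolin and nucleophosmin, are the bulk proteins of the nucleolus. NCL, encoding nucleolin, had the highest level per length of all members, 418 RPKM, and was at 4135, 3696 and 3765 CPM in CP+siNC and 3538, 3608 and 3636 CPM in CP+siNAT10. The groups did not overlap, but the lowest CP+siNC library was close to the highest CP+siNAT10 library, and the log2 fold change was -0.10 ± 0.038 (edgeR quasi-likelihood test, Benjamini-Hochberg adjusted p = 0.0275). That call was lost without CP+siNC replicate 1 (-0.056), without CP+siNAT10 replicate 1 (-0.093) and without CP+siNAT10 replicate 2 (-0.11), and with library size scaling (-0.066). NPM1, encoding nucleophosmin, had overlapping groups and a log2 fold change of -0.036, which was not called.

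**Figure D3:**
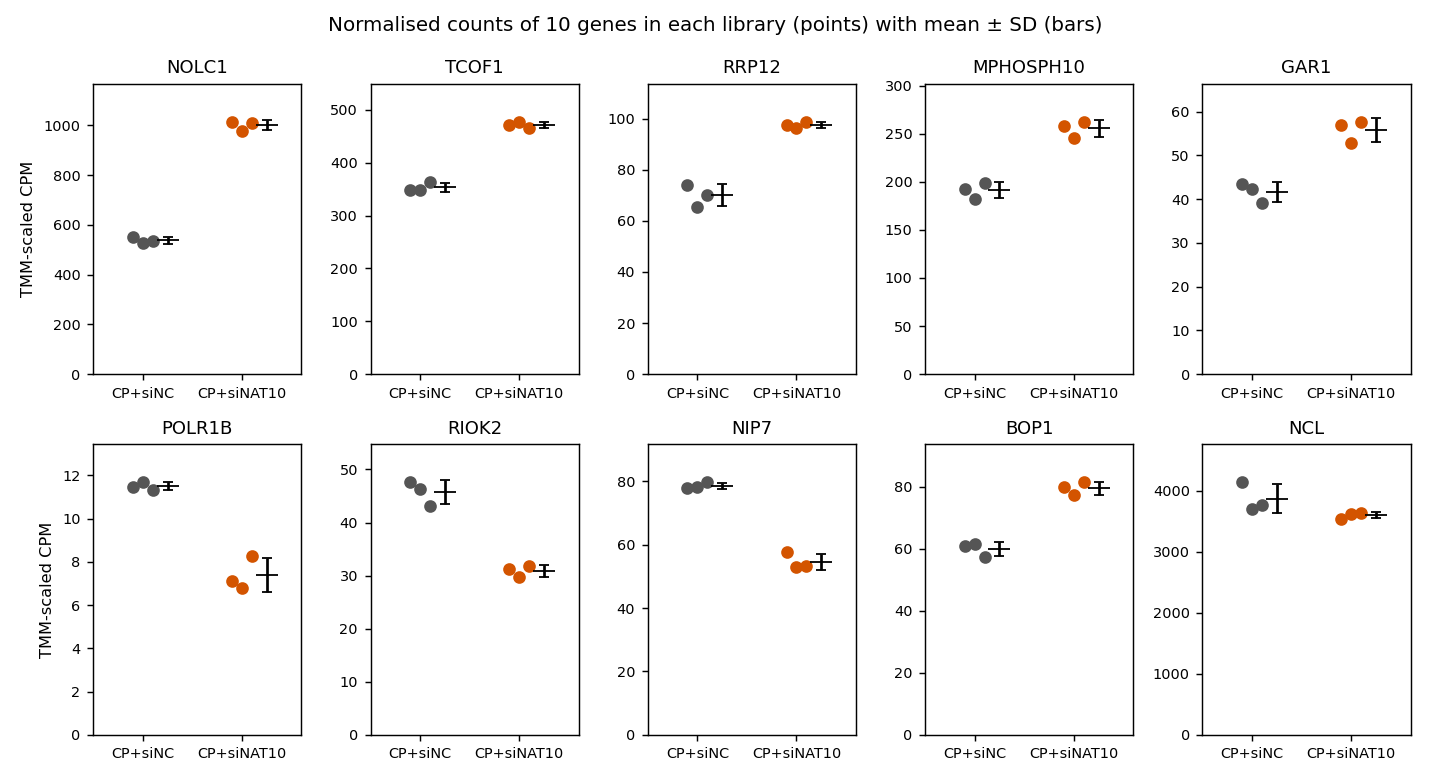
TMM-scaled CPM (vertical axes, each from 0) of 10 genes in each library, with points for the 3 libraries of CP+siNC and of CP+siNAT10 and bars for mean ± SD. NOLC1 has a mean of 538 CPM in CP+siNC and 1000.4 CPM in CP+siNAT10, and POLR1B, RIOK2 and NIP7 are lower in every CP+siNAT10 library.

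The transcription machinery of the ribosomal DNA was split. RNA polymerase I has a catalytic core formed by POLR1A and POLR1B, and the direction differed between them. POLR1B (chr2:112541915-112577058) was at 11.5, 11.7 and 11.3 CPM in CP+siNC and 7.12, 6.77 and 8.28 CPM in CP+siNAT10. Its CP+siNAT10 libraries were all lower and varied more among themselves than the controls did. This was the largest fall of any member, a log2 fold change of -0.63 ± 0.090 (edgeR quasi-likelihood test, Benjamini-Hochberg adjusted p = 1.43e-06), at the lowest level per length of the 58, 1.05 RPKM. POLR1A was at 44.6, 44.8 and 45.3 CPM in CP+siNC and 51.3, 53.9 and 50.9 CPM in CP+siNAT10. It was higher in each CP+siNAT10 library, with a log2 fold change of 0.21 ± 0.044 (edgeR quasi-likelihood test, Benjamini-Hochberg adjusted p = 2.09e-04), although the call was lost once the trend of fold change with gene length was removed (0.093), an alternative chosen after seeing the data. UBTF, the factor that coats active ribosomal DNA and opens its chromatin, was at 295, 284 and 281 CPM in CP+siNC and 311, 314 and 325 CPM in CP+siNAT10. It rose as well, and the groups did not overlap, with a log2 fold change of 0.14 ± 0.033 (edgeR quasi-likelihood test, Benjamini-Hochberg adjusted p = 7.62e-04).

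The box C/D snoRNPs guide methylation of ribose in ribosomal RNA, and 1 of their 3 core proteins in the list rose and 1 fell. FBL encodes fibrillarin, the methyltransferase of the particle, and was at 218, 224 and 201 CPM in CP+siNC and 246, 242 and 249 CPM in CP+siNAT10. Its libraries were separated by group, with a log2 fold change of 0.20 ± 0.037 (edgeR quasi-likelihood test, Benjamini-Hochberg adjusted p = 5.45e-05). NOP56, a scaffold protein of the same particle, was at 759, 726 and 749 CPM in CP+siNC and 705, 698 and 697 CPM in CP+siNAT10. The fall was small, a log2 fold change of -0.090 ± 0.032 (edgeR quasi-likelihood test, Benjamini-Hochberg adjusted p = 0.0246), and the call was lost without CP+siNC replicate 1 (-0.078) or 3 (-0.089) and without CP+siNAT10 replicate 2 (-0.087) or 3 (-0.085). NOP58, its partner, was nearly level between the groups at a log2 fold change of 0.012 and was not called.

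In the box H/ACA snoRNPs, which guide conversion of uridine to pseudouridine, all 4 proteins had positive fold changes and 3 were called higher. GAR1 (chr4:109815510-109824740), a small glycine- and arginine-rich protein of the particle, was at 43.5, 42.2 and 39 CPM in CP+siNC and 56.9, 52.8 and 57.8 CPM in CP+siNAT10. The lowest CP+siNAT10 library was above the highest CP+siNC library, and the log2 fold change was 0.42 ± 0.048 (edgeR quasi-likelihood test, Benjamini-Hochberg adjusted p = 2.85e-08). DKC1 encodes dyskerin, the pseudouridine synthase, which is also a part of telomerase and is mutated in dyskeratosis congenita. It was at 407, 389.9 and 399 CPM in CP+siNC and 455, 452 and 468 CPM in CP+siNAT10, the highest level per length in this class at 46.6 RPKM. All its CP+siNAT10 values exceeded the controls, with a log2 fold change of 0.20 ± 0.033 (edgeR quasi-likelihood test, Benjamini-Hochberg adjusted p = 8.52e-06). NHP2 rose with a log2 fold change of 0.18. NOP10 had overlapping groups, a value of 0.11 and no call, and was at 0.036 without CP+siNAT10 replicate 3.

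**Figure D4:**
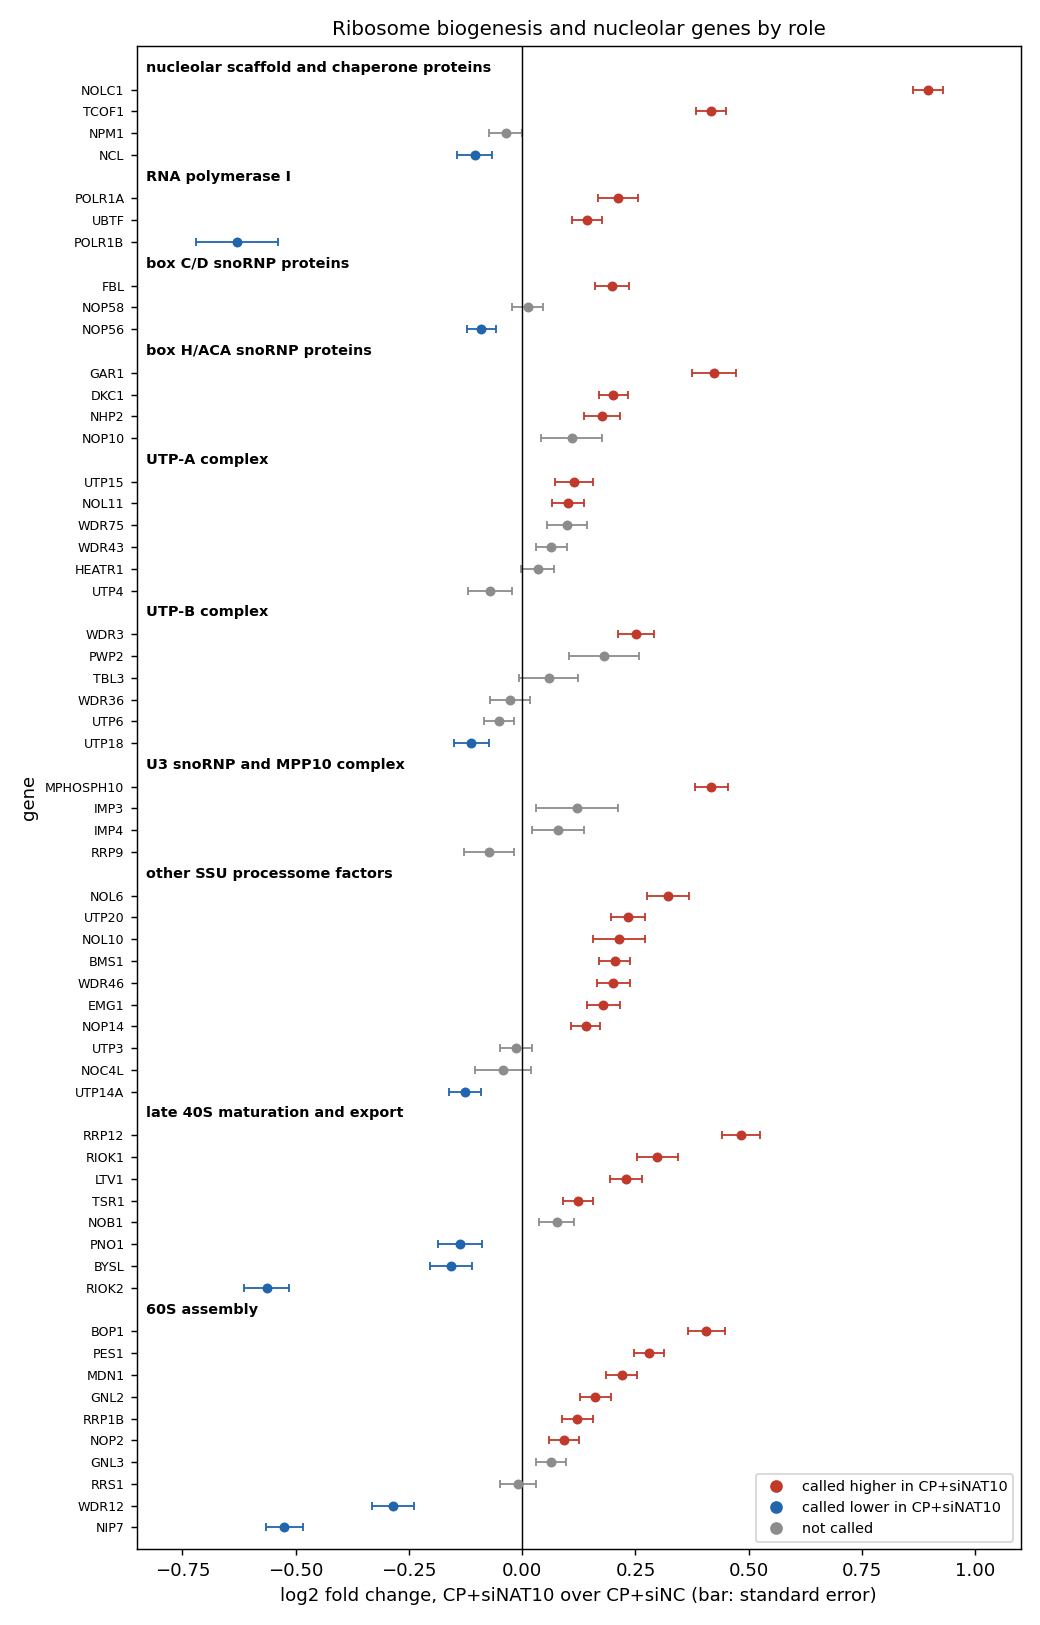
Log2 fold change of CP+siNAT10 over CP+siNC (horizontal axis, bars are standard errors) of each of the 58 members (vertical axis), grouped by role and coloured by call. The largest rise is NOLC1 at 0.90, the largest falls are POLR1B at -0.63, RIOK2 at -0.56 and NIP7 at -0.52, and most members lie to the right of 0.

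The small subunit processome was covered by 26 members, of which 11 rose (42.3%), 2 fell (7.69%) and 13 were not called. Their median log2 fold change was 0.10. The shares stand beside 30.4% and 30.8% of the tested genes at or above the lowest member's mean CPM. In its UTP-A complex, which binds the start of the nascent precursor, 2 of 6 were called higher, none lower. UTP15 was at 49.1, 49.9 and 49.5 CPM in CP+siNC and 54.5, 53.7 and 52.6 CPM in CP+siNAT10. The groups were close to each other but did not overlap, and the log2 fold change was 0.11 ± 0.042 (edgeR quasi-likelihood test, Benjamini-Hochberg adjusted p = 0.0291). NOL11 was at 95.1, 95.6 and 95.7 CPM in CP+siNC and 104, 100.2 and 103 CPM in CP+siNAT10. The spread within each group was narrow, with a log2 fold change of 0.10 ± 0.036 (edgeR quasi-likelihood test, Benjamini-Hochberg adjusted p = 0.0228). Both calls were weak. UTP15 kept its call only when CP+siNAT10 replicate 3 was left out, and lost it without each other library, where the fold change lay between 0.10 and 0.11. NOL11 kept it only without CP+siNAT10 replicate 2, and lay between 0.092 and 0.099 where it was lost. WDR43, the member of this complex with the highest level per length at 46.1 RPKM, was at 192, 183 and 179 CPM in CP+siNC and 190.2, 194 and 195 CPM in CP+siNAT10. Its groups overlapped and it was not called, at 0.064. HEATR1, UTP4 and WDR75 were also not called, with values of 0.034, -0.070 and 0.099.

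The UTP-B complex, a further building block that joins next, held 1 member that rose, 1 that fell and 4 not called. WDR3 was at 80.1, 73.2 and 78.6 CPM in CP+siNC and 91.3, 90.3 and 94.1 CPM in CP+siNAT10. The CP+siNAT10 libraries all lay above the controls, with a log2 fold change of 0.25 ± 0.040 (edgeR quasi-likelihood test, Benjamini-Hochberg adjusted p = 6.44e-06). UTP18 was at 82.6, 86.2 and 84.7 CPM in CP+siNC and 75.6, 80.1 and 78.8 CPM in CP+siNAT10. The fall was slight, a log2 fold change of -0.11 ± 0.038 (edgeR quasi-likelihood test, Benjamini-Hochberg adjusted p = 0.0181), and it was not called without CP+siNC replicate 2 (-0.10), without CP+siNAT10 replicate 1 (-0.088), or with library size scaling (-0.075). PWP2, TBL3, WDR36 and UTP6 were not called, with values of 0.18, 0.058, -0.027 and -0.050. PWP2 depended on single libraries, as it was called without CP+siNC replicate 1 (0.27) but was at 0.099 without CP+siNC replicate 3.

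Around the U3 snoRNA, which base pairs with the precursor, MPHOSPH10 alone was called among 4 members. MPHOSPH10 (chr2:71130310-71150101) forms a complex with IMP3 and IMP4, and it was at 192, 183 and 199 CPM in CP+siNC and 258, 246 and 263 CPM in CP+siNAT10. All CP+siNAT10 libraries were above all CP+siNC libraries, by a log2 fold change of 0.42 ± 0.036 (edgeR quasi-likelihood test, Benjamini-Hochberg adjusted p = 1.59e-10). The 2 partners did not pass the test. IMP3 had a log2 fold change of 0.12 and IMP4 of 0.080, with overlapping groups for both. RRP9, a protein bound directly to U3, was at -0.074 and was not called.

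Of the 10 other processome factors, 7 rose and 1 fell, where the tested genes at or above the lowest member's mean CPM had 30.4% and 30.8%. NOL6 was at 40.3, 40 and 42.1 CPM in CP+siNC and 52.7, 51.5 and 49 CPM in CP+siNAT10. Its groups did not overlap, with a log2 fold change of 0.32 ± 0.046 (edgeR quasi-likelihood test, Benjamini-Hochberg adjusted p = 1.17e-06). UTP20, a very long helical repeat protein, was at 79, 79.9 and 77.1 CPM in CP+siNC and 93, 90.4 and 94 CPM in CP+siNAT10. No control library reached the lowest CP+siNAT10 value, and it had a log2 fold change of 0.23 ± 0.037 (edgeR quasi-likelihood test, Benjamini-Hochberg adjusted p = 7.19e-06). UTP3 had the highest level per length in this class, 114 RPKM, and was at 237, 227 and 230.3 CPM in CP+siNC and 239, 219 and 231 CPM in CP+siNAT10. Its groups overlapped and it was not called, at -0.013. The other rises were NOL10 (0.21), the GTPase BMS1 (0.20), WDR46 (0.20), the methyltransferase EMG1 (0.18) and NOP14 (0.14). Of these, NOL10 was not called without CP+siNC replicate 3 (0.14) or with the length trend removed (0.088). UTP14A, which activates the helicase that frees U3, fell with a log2 fold change of -0.13, and NOC4L was not called at -0.042. UTP14A has a retrogene copy, UTP14C, and reads of the 2 may not always be separable, so its value is less certain.

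Late maturation of the 40S subunit showed the widest range of fold changes of any role, from -0.56 to 0.48, with 4 rises, 3 falls and 1 member not called. RIOK2 (chr5:97160867-97183222), an atypical kinase of the cytoplasmic precursor particle, was at 47.6, 46.4 and 43.1 CPM in CP+siNC and 31.2, 29.7 and 31.8 CPM in CP+siNAT10. The groups lay far apart, with a log2 fold change of -0.56 ± 0.050 (edgeR quasi-likelihood test, Benjamini-Hochberg adjusted p = 2.27e-10). RRP12 (chr10:97356358-97426074), which helps to export the precursor from the nucleus, was at 74, 65.4 and 70.3 CPM in CP+siNC and 97.5, 96.4 and 98.9 CPM in CP+siNAT10. It moved the other way, higher in each CP+siNAT10 library, with a log2 fold change of 0.48 ± 0.041 (edgeR quasi-likelihood test, Benjamini-Hochberg adjusted p = 1.15e-10). RIOK1, the other RIO kinase among the members, also rose, at 0.30. LTV1, a factor removed by phosphorylation before final maturation, had the highest level per length of this class at 99.4 RPKM and was at 171, 165 and 173 CPM in CP+siNC and 202, 188 and 205 CPM in CP+siNAT10. Its groups did not overlap, with a log2 fold change of 0.23 ± 0.036 (edgeR quasi-likelihood test, Benjamini-Hochberg adjusted p = 6.12e-06). TSR1 rose by 0.12 on the log2 scale and lost its call without CP+siNC replicate 2 (0.084). BYSL fell by 0.16 and lost its call without CP+siNC replicate 3 (-0.12). PNO1 fell by 0.14, and was not called without CP+siNC replicate 1 (-0.094) or CP+siNAT10 replicate 3 (-0.12). NOB1, the endonuclease that works with PNO1 to form the mature end of 18S ribosomal RNA, was not called at 0.076.

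Among the 10 factors of 60S assembly, 6 rose, 2 fell and 2 were not called, set against the same 30.4% and 30.8%. NIP7 (chr16:69337996-69342054), an RNA-binding factor for precursor processing, was at 77.9, 78.1 and 79.6 CPM in CP+siNC and 57.6, 52.9 and 53.4 CPM in CP+siNAT10. Every CP+siNAT10 library was lower than every control, with a log2 fold change of -0.52 ± 0.041 (edgeR quasi-likelihood test, Benjamini-Hochberg adjusted p = 2.32e-11). BOP1 belongs to the PeBoW complex, in which it holds PES1 and WDR12 together, and it was at 60.8, 61.7 and 57.5 CPM in CP+siNC and 79.8, 77.3 and 81.4 CPM in CP+siNAT10. The CP+siNAT10 values were all the higher ones, with a log2 fold change of 0.41 ± 0.041 (edgeR quasi-likelihood test, Benjamini-Hochberg adjusted p = 2.63e-09). The 3 genes of this complex did not move together. PES1 rose by 0.28, whereas WDR12 was at 45.4, 48.3 and 47 CPM in CP+siNC and 40, 38.1 and 37.6 CPM in CP+siNAT10. Its groups did not overlap, with a log2 fold change of -0.28 ± 0.046 (edgeR quasi-likelihood test, Benjamini-Hochberg adjusted p = 1.03e-05). PES1 and WDR12 were singled out after their values had been seen. GNL3, encoding the GTPase nucleostemin, had the highest level per length of this class at 72.6 RPKM and was at 236, 222 and 233 CPM in CP+siNC and 237, 239.8 and 244 CPM in CP+siNAT10. Its lowest CP+siNAT10 library was just above its highest control, and it was not called at 0.064. Smaller rises were those of the giant ATPase MDN1 (0.22), the GTPase GNL2 (0.16), RRP1B (0.12) and the methyltransferase NOP2 (0.093), and RRS1 was level at -0.0092. MDN1 was not called with the length trend removed, where its fold change was only 0.056. NOP2 was not called without CP+siNC replicate 2 (0.071) or 3 (0.091) or CP+siNAT10 replicate 1 (0.084).

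Of the 39 called members, 27 kept the call under every other scaling, filter and test, the replicate block, the length correction and each left-out library, apart from the test against a fold of 1.2. The 12 members that lost it in at least 1 of these settings were all at or below the 0.22 of MDN1 in size. Besides the losses named with each gene, calls were lost with DESeq2 for NOL11 (0.10), UTP15 (0.11), UTP18 (-0.11) and PNO1 (-0.14), at nearly unchanged fold changes. Without a filter they were lost for NOP56 (-0.078), UTP18 (-0.10) and PNO1 (-0.13), and with library size scaling for NOP56 (-0.052) and PNO1 (-0.10). With the length trend removed they were lost for BYSL (-0.11), PNO1 (-0.097), UTP15 (0.092) and UTP18 (-0.072). NCL lost its call with the replicate block at a nearly unchanged -0.10. In the other direction PWP2, WDR43, WDR75, GNL3 and NOB1 were called only in some of the other settings. Fold changes of other uncalled members also depended on single libraries. When each library was left out, IMP3 ran from 0.076 to 0.20 and NOC4L from -0.12 to 0.037. TBL3 ran from -0.0085 to 0.10 and RRP9 from -0.12 to -0.019. The test against a fold of 1.2 kept 6 rises, NOLC1, TCOF1, RRP12, MPHOSPH10, GAR1 and BOP1, and 3 falls, POLR1B, RIOK2 and NIP7.

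Overlap with other genes limits some of these values, since the kit marks strand but whether the counting used it is not given in the sources used here. A gene on the opposite strand with at least 10% of the member's counts overlapped 13 members, and a gene on the same strand 5. Overlap was judged on whole gene spans, introns included, and the shares use all counts of the neighbour. How many reads fell in shared exons was not measured. For NIP7 this was COG8, with 76.7% of its counts and a log2 fold change of 0.043, and for WDR12 it was NBEAL1, with 55.7% and -0.15. PNO1, UTP4, IMP3, HEATR1, NHP2, NOP58, UTP14A, NOL10, NOP14, NOB1 and GNL3 had opposite-strand neighbours of this kind as well, and UTP4, NOP2, EMG1, LTV1 and RRS1 same-strand ones, so their values are less certain. Some neighbours had more counts than the member. Their shares were 441% for NOP2 (same strand, log2 fold change -0.036) and, on the opposite strand, 228% for IMP3, 169% for UTP4 and 133% for PNO1. The same-strand neighbour of EMG1 had 80.4% and a log2 fold change of 0.19. BMS1 shares sequence with its pseudogenes. Another shared feature is the hosting of snoRNAs in introns. At least 1 snoRNA gene lay inside 8 members (13.8%), NCL, NOP56, NOP58, DKC1, WDR43, NOL11, TSR1 and GNL3, compared with 1.61% of the 13438 tested protein-coding genes. Of these hosts 3 rose, 2 fell and 3 were not called.

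Gene length went with the fold change among genes of at least 5 CPM. Their median log2 fold change was -0.046 in the shortest 4103 genes, -0.00024 in the middle 4100 and 0.069 in the longest 4101. Members showed the same order, with medians of 0.078, 0.11 and 0.19 in the same 3 length classes, each above that of all genes in its class. Their median length of 4773 bases was close to the 5056 bases of these genes. With the length trend removed, the members' median was 0.10, 27 were called higher and 7 lower. The part of length in the results was not tested further.

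The 108 other ribosome biogenesis genes were divided nearly evenly, with 33 called higher (30.6%), 30 lower (27.8%) and 45 not called, at a median of 0.032. Among RNA polymerase I subunits and initiation factors, 3 of 12 rose and 5 fell. RRN3, the factor that makes the polymerase competent to start, was at 68.2, 67.7 and 67.8 CPM in CP+siNC and 46.9, 48.5 and 45 CPM in CP+siNAT10. It was lower in all CP+siNAT10 libraries, like POLR1B, with a log2 fold change of -0.54 ± 0.042 (edgeR quasi-likelihood test, Benjamini-Hochberg adjusted p = 1.93e-11). POLR1G fell by 0.29 on the log2 scale and TAF1A, of the promoter selectivity factor, rose by 0.36. Of 21 other 40S factors 7 rose and 8 fell, among them RIOK3, a RIO kinase, at -0.42, PDCD11 at 0.35 and UTP25 at -0.22. Of 35 other 60S factors 13 rose and 8 fell, with BRIX1 at -0.37, ZNF622 at 0.39 and SDAD1 at 0.31. Of 15 nucleolar RNA helicases, which unwind the precursor, 8 rose (53.3%) and 2 fell (13.3%), beside 30.4% and 30.8% of the tested genes at or above the lowest member's mean CPM, a difference that was not tested. DHX37, the helicase that UTP14A activates, was at 53, 58.9 and 58.5 CPM in CP+siNC and 82.4, 80.2 and 76.1 CPM in CP+siNAT10. It was higher in all CP+siNAT10 libraries, with a log2 fold change of 0.48 ± 0.045 (edgeR quasi-likelihood test, Benjamini-Hochberg adjusted p = 5.05e-10), while DDX51 was at 0.42 and DDX24 at 0.32. Of 14 genes of the RNA exosome and its cofactors, which trim precursor ends, 1 rose (7.14%) and 5 fell (35.7%), the latter near the 30.8%. C1D, a cofactor of the nuclear exosome, was at 17.7, 16.5 and 15.8 CPM in CP+siNC and 8.69, 10.3 and 10.1 CPM in CP+siNAT10. Its groups were far apart, with a log2 fold change of -0.78 ± 0.079 (edgeR quasi-likelihood test, Benjamini-Hochberg adjusted p = 3.44e-09), and MPHOSPH6 was at -0.28 and EXOSC9 at -0.25. Of 11 proteins of RNase P and RNase MRP, 1 rose and 2 fell, POP1 at 0.22, RPP40 at -0.39 and RPP30 at -0.23.

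Regulators around the pathway moved in several directions. MYC was at 65.6, 66.7 and 62.6 CPM in CP+siNC and 74.6, 74.6 and 75.5 CPM in CP+siNAT10. It was higher in each CP+siNAT10 library, with a log2 fold change of 0.20 ± 0.039 (edgeR quasi-likelihood test, Benjamini-Hochberg adjusted p = 9.20e-05). Over the MYC network, 10 of 11 genes could be tested, of which 2 rose and 4 fell. MXD4, which competes with MYC for MAX, was at -0.34, MLX at -0.28 and MGA at 0.31. RPL23, a ribosomal protein that binds MDM2, was at 459.7, 436 and 458 CPM in CP+siNC and 329, 324 and 327 CPM in CP+siNAT10. Its groups did not overlap, with a log2 fold change of -0.47 ± 0.033 (edgeR quasi-likelihood test, Benjamini-Hochberg adjusted p = 2.19e-12). MYBBP1A, a nucleolar protein, rose by 0.31. MDM2, a ubiquitin ligase, was at -0.19. CDKN1A, an inhibitor of cyclin-dependent kinases that arrests the cell cycle, was at 71.6, 67.6 and 69.2 CPM in CP+siNC and 50, 51.7 and 54.4 CPM in CP+siNAT10. All its CP+siNAT10 values were lower, with a log2 fold change of -0.41 ± 0.043 (edgeR quasi-likelihood test, Benjamini-Hochberg adjusted p = 4.79e-09). Proliferation markers were called lower for 9 of 10 genes, MCM2 being the exception, at a median of -0.27, and their sum was 4169.9 ± 77.8 CPM (SD, n = 3) in CP+siNC and 3519 ± 43.2 CPM (SD, n = 3) in CP+siNAT10. CCNB1 was at -0.43, CDK1 at -0.46 and TOP2A at -0.36. The part of this difference in proliferation in the members' values was not tested.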

How the data were processed

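RNA of 6 libraries of Cisplatin-treated HK-2 cells, 3 per group, was sequenced from stranded messenger RNA libraries with molecular identifiers. According to the submitters' processing notes the authors used Trimmomatic 0.36, STAR 2.5.3a and featureCounts of Subread 1.5.1 on GRCh38, and they deposited raw counts per gene. The identifiers are meant to correct for duplicates, but whether this was done for the deposited counts, the strand setting and the annotation are not given in the sources used here. Groups were compared on these counts by edgeR 4.0.16 under R 4.3.3 (filterByExpr with a minimum count of 10, TMM, glmQLFit and glmQLFTest without a block), with p-values adjusted over all 19874 tested genes. Totals ran from 19321665 to 25192736, so counts per library limit precision mainly for the least abundant genes. The procedure was also run on simulated data with 200 changed genes, and the outcome of that run is not reported here. Groups came from the sample titles, and no sample was left out. Levels between genes were compared as RPKM. Named genes were NAT10, THUMPD1, MYC, MDM2, CDKN1A, in each role the 2 called members with the largest change and the member with the highest RPKM, and of other lists up to 3 called genes with the smallest p, and 1 further gene and its list are not reported here. Members and lists were chosen with earlier results of these data known. Promoters came from RefSeq on GRCh38.p14, gene overlaps from the positions in the deposited count table and snoRNA genes inside members from GENCODE. Python 3.11.15 drew the plots. The alternatives were other scalings and filters, DESeq2 1.42.0, a test against a fold of 1.2, a replicate block, each library left out and, added after seeing the data, removal of a length trend. A planned count of RGG in proteins was not run.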

Additional observations from a re-analysis of the deposited data

How the results depend on the processing

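No called result changed direction under any setting run. The test against a fold of 1.2 left 1319 genes higher and 1591 lower, 6 members higher and 3 lower, and 6 other biogenesis genes higher and 4 lower, by its own construction. With library size only, 6 members were lower and the members' median was 0.15. Over all tested genes 5050 were then higher and 3786 lower, and the cause was not tested. The median over all tested genes, 0.0070, was 0.0042 with RLE, 0.0021 with upper quartile, 0.044 with library size only, 0.013 without a filter, 0.0029 with at least 50 counts in 3 libraries, 0.0015 with DESeq2, 0.012 with the length trend removed, and 0.0027 to 0.0063 when each library was left out. Leaving out each library gave 25 to 29 members higher and 7 to 9 lower, with a median of 0.10 to 0.12. Deviations of same-numbered libraries had correlations of 0.0081, 0.064 and -0.21, and those of differently numbered libraries ran from -0.22 to 0.20. With 3 libraries per group this cannot decide whether the numbers pair the samples. With the replicate block 30 members were higher and 9 lower, 4208 and 4318 over all genes, and the members' median was 0.11. All other counts stayed within 1.5 times. Depth limits low genes such as POLR1B and IMP3 most.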

Other observations

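The 58 members took 1.36%, 1.30% and 1.32% of all counts in the CP+siNC libraries and 1.44%, 1.44% and 1.45% in the CP+siNAT10 libraries. Messenger RNAs of the ribosomal proteins, which unlike the members encode parts of the mature ribosome, took 4.03%, 4.02% and 3.97% in CP+siNC and 3.53%, 3.51% and 3.57% in CP+siNAT10. In these raw counts, without TMM scaling, the members' share was higher and the ribosomal proteins' share lower in every CP+siNAT10 library. NOLC1 weighs on the members' share, as on the TMM scale their mean sum without it was 103% of that in CP+siNC. The 108 other ribosome biogenesis genes were divided, with 33 called higher and 30 lower.

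Of the 26 snoRNA genes inside members, those in NOP56 held most counts, with a mean per library of 348 for SNORD57, 243 for SNORD86 and 236 for SNORD56. Mature snoRNAs have no poly(A) tail and lie in introns of the host, so in these counts snoRNA and unspliced NOP56 RNA cannot be told apart.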
